A study of Papio anubis with 12 samples.

Results

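The microRNA miR-421 and its cluster mates were described in small RNA libraries from the frontal cortex of 12 fetal baboons (Papio anubis) taken on gestation day 165. The cluster was defined by 4 precursor hairpins named as in human: hsa-mir-421, hsa-mir-374b, hsa-mir-374a and hsa-mir-545. These gave 7 of the 1921 mature miRNA names in the deposited table: miR-421, and both arms (5p and 3p) of miR-374b, miR-374a and miR-545. In 6 fetuses the mother was nutrient restricted (MNR) and was given 70% of the feed that control mothers ate per kilogram. In 6 control fetuses the mother ate freely. Both groups were fed the same monkey chow, and each held 3 female and 3 male fetuses with 1 library per fetus. The labels do not name the mothers, and p-values measure the spread between these fetuses. miR-421 had been picked because it was lower in MNR libraries after median-ratio scaling, and the mates because they share its cluster. The comparison between diets is therefore given here as a description, with no test for these miRNAs.

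A microRNA is cut from one arm of a hairpin in a longer transcript and guides repression of mRNAs that pair with its seed, a short stretch near its 5′ end. In human, the 4 hairpins lie in introns of FTX, a long non-coding RNA of the X-inactivation centre on the X chromosome. The hairpins of miR-421 and miR-374b sit side by side in one intron, and those of miR-374a and miR-545 in another. FTX helps to control XIST, the RNA that coats the silenced X chromosome of female cells. miR-374a-5p and miR-374b-5p carry the same seed and can repress the same targets, whereas miR-421 has another seed and is known in human cells to repress ATM, a kinase of the DNA damage response. miR-374a is known in human breast cancer cells for repressing antagonists of Wnt signalling.

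Each library held 1078720 to 1464660 counted reads in MNR fetuses and 513029 to 1898763 in control fetuses. Levels are reads per 1000000 (RPM), so 1 read was worth 0.527 to 1.95 RPM. Median-ratio scaling, which divides each library by its median ratio to the geometric mean over the 417 miRNAs found in every library, lowered MNR libraries by 0.221 (log2) against controls. The 6 neuronal and cortical miRNAs, led by miR-9-5p at 77360 RPM, all had reads, and summed to 98240 to 122800 RPM in MNR and 88650 to 115400 RPM in controls. Markers of other tissues were present too. The 5 erythroid miRNAs, led by miR-486-5p, summed to 3117 to 5710 RPM in MNR and 2165 to 3920 RPM in controls. The HOX-cluster miRNAs of hindbrain and spinal cord, led by miR-10b-5p and with 1 of 4 at 0 throughout, summed to 425.5 to 2205 RPM in MNR and 699.5 to 7729 RPM in controls. The liver marker miR-122-5p was near the floor, at 0 to 1.37 RPM in MNR and 1.47 to 9.75 RPM in controls. The gap between 1.37 and 1.47 RPM was smaller than the worth of 1 read in any library. Every MNR fetus lay below every control in RPM for 0.208% of all 481 tested miRNAs. Vessel and mesenchyme markers summed to 16830 to 48730 RPM in MNR and 24310 to 37410 RPM in controls, choroid plexus markers to 738.3 to 1906 and 593.4 to 2111 RPM, microglial and leukocyte markers to 158.1 to 327.2 and 140.3 to 214.1 RPM, and oligodendrocyte markers to 334.3 to 518.9 and 249.8 to 374.6 RPM, in MNR and in controls, with all members detected. The part of these markers in the diet differences below was not tested. In whole tissue, fewer cells of a type and less RNA per cell cannot be told apart.

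miR-421 (MIMAT0003339) was the most abundant member, ranking 113 among the 764 names with reads, and its mean was 248 RPM. In RPM as deposited, the MNR fetuses had a lowest value of 139, a median of 226 and a highest of 238 RPM, against 219, 305 and 326 RPM in control fetuses. The diets overlapped because control replicate 3, a female, lay below 4 of the 6 MNR fetuses. The means were 205 ± 42.4 RPM in MNR and 291 ± 40.9 RPM in controls (SD, n = 6 each), and the log2 difference of RPM + 1 was -0.52 ± 0.16 (SE). After median-ratio scaling the MNR fetuses ran from 151 through a median of 191 to 221 scaled RPM, and the controls from 257 through 317 to 347 scaled RPM. On that scale the diets did not overlap, with means of 188 ± 29.5 scaled RPM in MNR and 313 ± 33.9 scaled RPM in controls (SD, n = 6 each) and a log2 difference of -0.74 ± 0.13 (SE).

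These values rested on 177 to 323 reads of miR-421 per MNR library and 151 to 488 per control library. The coefficient of variation between fetuses in RPM was 20.6% in MNR and 14.1% in controls, against 6.36% and 5.5% from read counting alone. With 1 library per fetus, differences between fetuses and library preparation cannot be told apart. MNR replicates 2 and 5, a female and a male, held the lowest levels, at 139 and 166 RPM.

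Its intron neighbour miR-374b-5p (MIMAT0004955) had a higher mean in MNR in RPM, with overlapping diets. It stood at 89.3, 99.9 and 121 RPM (lowest, median, highest) in MNR fetuses and at 70.7, 81.6 and 111 RPM in control fetuses. The means were 102 ± 11.2 RPM in MNR and 86.4 ± 14.5 RPM in controls (SD, n = 6 each; log2 difference 0.25 ± 0.15, SE). After scaling they were nearly level, at 94.7 ± 10.9 scaled RPM in MNR and 93.3 ± 15.4 scaled RPM in controls, a log2 difference of 0.03 ± 0.14 (SE). The opposite arm miR-374b-3p (MIMAT0004956) was low, at 6.26 to 17 RPM in MNR and 5.27 to 16.7 RPM in controls. It averaged 13.2 ± 3.97 RPM in MNR and 12 ± 3.83 RPM in controls (SD, n = 6 each), on 6 to 25 reads per library. Its spread between fetuses, 30.1% in MNR and 32% in controls, was close to the 25.7% and 27.9% that counting error gives.

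From the other intron, miR-374a-5p (MIMAT0000727) had almost the same mean in RPM under both diets, 49.4 ± 7.59 RPM in MNR and 48.6 ± 8.23 RPM in controls (SD, n = 6 each; log2 difference 0.03 ± 0.18, SE). Its range was 40.4 to 58 RPM in MNR and 34.8 to 60.4 RPM in controls, and after scaling the log2 difference was -0.19 ± 0.16 (SE). The arm miR-374a-3p (MIMAT0004688) was the mate with the lowest log2 difference between diets. It stood at 65, 84.1 and 93.7 RPM (lowest, median, highest) in MNR fetuses and at 75.7, 92.9 and 106 RPM in controls, and the groups overlapped. After scaling it averaged 75 ± 10.8 scaled RPM in MNR and 98.7 ± 11.1 scaled RPM in controls, a log2 difference of -0.40 ± 0.14 (SE), and the diets still overlapped (MNR up to 88.2, controls from 82.6 scaled RPM).

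miR-545, which shares the intron of miR-374a, was barely detected. miR-545-5p (MIMAT0004785) had 4 reads in MNR libraries, or 0.534 RPM (exact 95% Poisson interval 0.146 to 1.37), and 4 in control libraries, or 0.505 RPM (0.138 to 1.29). miR-545-3p (MIMAT0003165) had 1 read under each diet. Both arms stayed under the mean of 1 RPM needed for the fits, so 5 of the 7 members entered them, and a difference between diets was not detectable at this depth. These intervals pool the reads of a diet and cover counting error only, not differences between fetuses. The labels name no molecular identifiers, so reads copied from the same molecule cannot be told apart. miR-374c, whose hairpin overlaps that of miR-374b on the other strand in human and whose 5p arm is near-identical in sequence, had 1 read of its 5p arm and 2 of its 3p arm over all 12 libraries. Each of the 7 members had a single entry in the table.

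Across all 481 miRNAs tested, 2.7% were called between diets in RPM in either direction (limma, adjusted p under 0.05), and 0 of the 5 members were. After median-ratio scaling 0.416% of all were called lower in MNR, and 1 of the 5 members was, miR-421. On that scale miR-451a, of the erythroid list, was called higher in MNR (log2 difference 0.98, limma adjusted p = 0.0341). Every MNR fetus lay below every control for 0.208% of miRNAs in RPM and 0 members, and for 1.25% after scaling and 1 member, again miR-421. The median log2 difference over all 481 was 0.23 in RPM and 0.03 after scaling. Since this contrast picked miR-421, nothing is read from its count.

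**Figure D1:**
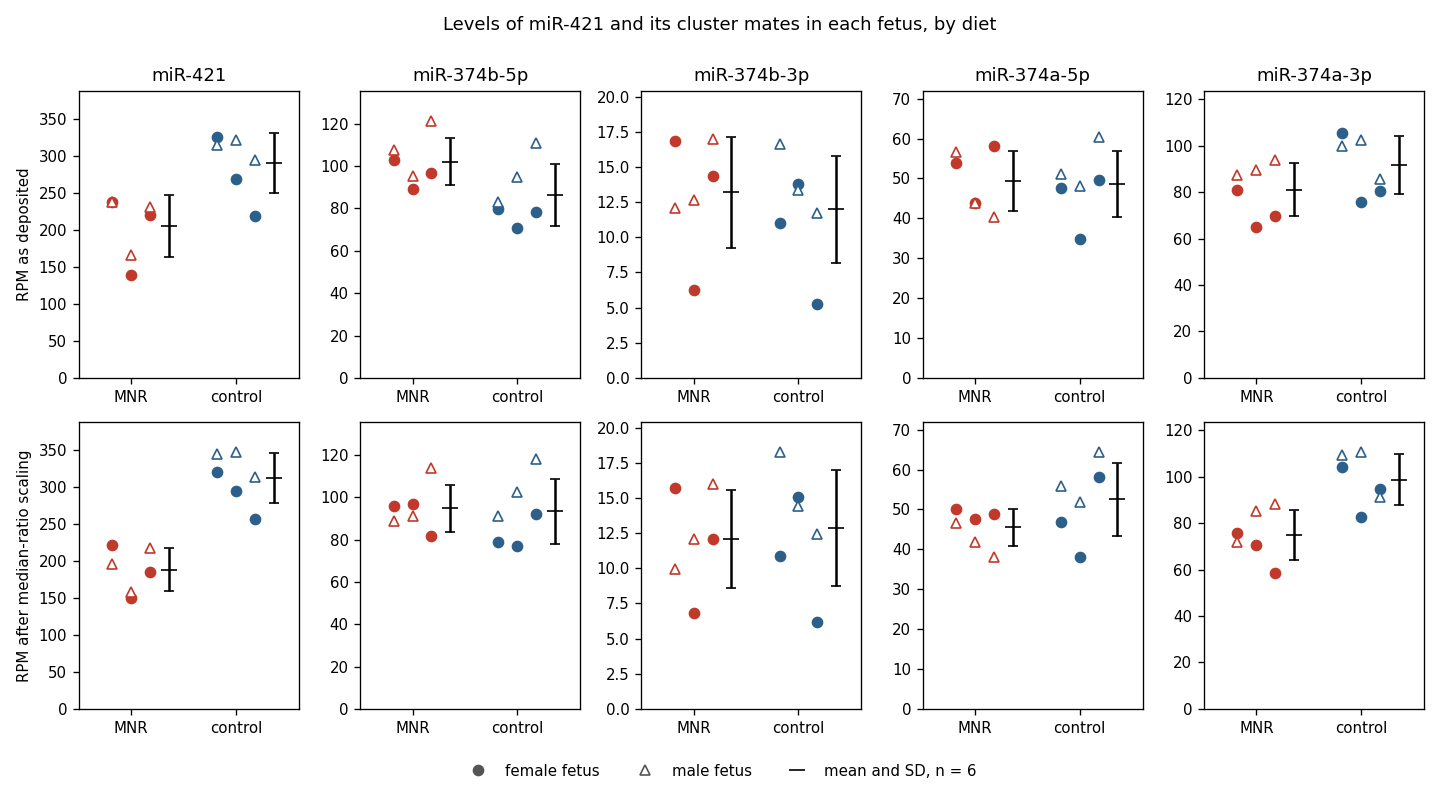
Levels of the 5 members with a mean of at least 1 RPM, 1 point per fetus, with MNR left of control; the upper row is RPM as deposited, the lower row after median-ratio scaling, and bars give the mean and SD (n = 6). After scaling the MNR values of miR-421 lie at 151 to 221 and the control values at 257 to 347, while the diets overlap for the other 4 members.

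A ratio of 2 miRNAs within one library does not depend on the scaling of that library, apart from the pseudocount of 1 RPM, so miR-421 was set against each mate. The level of miR-421 was 1.97 times that of miR-374b-5p, its intron neighbour, in MNR and 3.35 times in controls (geometric means of ratios of RPM + 1). On the log2 scale the ratio averaged 0.98 ± 0.23 in MNR fetuses and 1.74 ± 0.26 in control fetuses (SD, n = 6 each), a difference of -0.76. Single fetuses ran from 0.63 through a median of 1.03 to 1.20 in MNR, and from 1.40 through 1.83 to 2.01 in controls. Every MNR fetus lay below every control, as held for 1.67% of all tested miRNAs set over miR-374b-5p. The ratio uses the contrast that picked miR-421, so it too is a description. The difference was -0.80 in females and -0.73 in males.

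The other mates gave smaller or less separated differences. The log2 ratio of miR-421 over miR-374b-3p was 3.89 ± 0.27 in MNR and 4.55 ± 0.37 in controls, with 4 of 6 MNR fetuses below the lowest control. Over miR-374a-5p it was 2.02 ± 0.29 in MNR and 2.56 ± 0.31 in controls, with 5 of 6 below. Over miR-374a-3p it came to 1.31 ± 0.29 in MNR fetuses and 1.65 ± 0.14 in control fetuses (SD, n = 6 each), a difference of -0.34, with 3 of 6 below. The diet difference of the ratio was thus smallest against miR-374a-3p.

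Against all 6 mates summed, miR-421 was the lower in every MNR library and the higher in every control library. The log2 ratio was -0.28 ± 0.21 in MNR, with a range of -0.56 to -0.11, while controls had 0.28 ± 0.17 and a range of 0.03 to 0.46 (SD, n = 6 each). The same separation held for 0.419% of all tested miRNAs over this sum. miR-421 made up 45.1 ± 3.59% of the cluster's summed level in MNR and 54.8 ± 2.86% in controls. The summed mates averaged 246 ± 24.1 RPM in MNR and 239 ± 28.8 RPM in controls, and 228 ± 19 and 258 ± 28.2 scaled RPM in MNR and in controls. The balance of arms within a hairpin overlapped between diets: miR-374b-5p stood 7.54-fold above miR-374b-3p in MNR and 6.99-fold in controls, and miR-374a-5p stood at 0.614 of miR-374a-3p in MNR and 0.533 in controls.

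**Figure D2:**
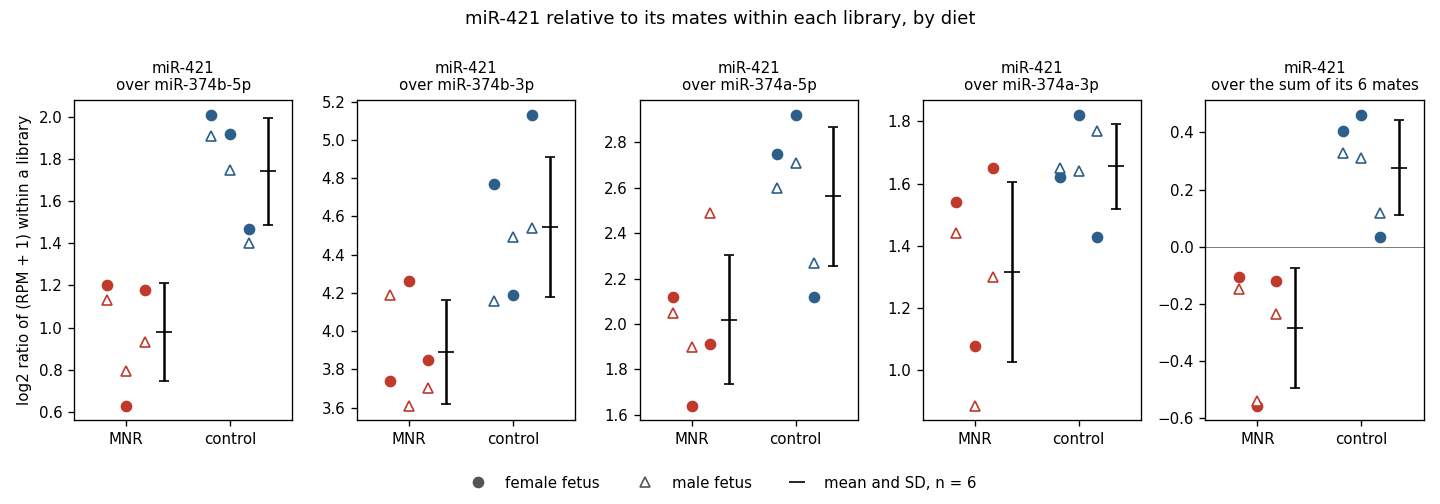
Log2 ratio of miR-421 to each mate and to the 6 mates summed within a library, 1 point per fetus, with MNR left of control and bars for the mean and SD (n = 6). The diets do not overlap over miR-374b-5p (MNR up to 1.20, controls from 1.40) and over the sum of the mates (MNR up to -0.11, controls from 0.03), and they overlap over the other 3.

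The sex of the fetus was not used to pick the cluster, and the human hairpins are X-linked, so females were compared with males over both diets. No member differed between the sexes past the threshold. All 5 had a log2 difference below 0, that is, a lower mean in females, in RPM and after median-ratio and TMM scaling, although miR-374a-5p lay at 0.01 without control replicate 2 and at 0.0030 without MNR replicate 4. miR-374b-5p stood at 86.3 ± 12.2 RPM in females and 102 ± 13.6 RPM in males (SD, n = 6 each), a log2 difference of -0.24 with a 95% confidence interval of -0.56 to 0.08 (limma with Benjamini-Hochberg adjustment, adjusted p = 0.987). miR-374a-3p stood at 79.6 ± 14.2 RPM in females and 93.1 ± 6.86 RPM in males, a log2 difference of -0.24 (interval -0.57 to 0.09). miR-421 stood at 235 ± 61.9 RPM in females and 261 ± 60.3 RPM in males, a log2 difference of -0.16 (interval -0.52 to 0.20). With single fetuses left out it ran from -0.24 (without MNR replicate 5) to -0.040 (without MNR replicate 2), and was -0.088 without control replicate 3.

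The intervals were wide for the rest. miR-374b-3p, at 11.3 ± 4.65 RPM in females and 13.9 ± 2.33 RPM in males, had a log2 difference of -0.37 (interval -0.99 to 0.25), which was -0.17 without MNR replicate 2 and -0.19 without control replicate 3. miR-374a-5p, at 47.9 ± 8.1 and 50.1 ± 7.57 RPM in females and in males, had -0.07 (interval -0.45 to 0.32). Over all 481 miRNAs 0% were called for sex by limma, and edgeR and DESeq2 on recovered reads also called 0. At an unadjusted p under 0.05 there were 17 (3.53%), none of them a member. The smallest p belonged to miR-1277-3p, at 1.91 RPM in females and 0.135 RPM in males (log2 difference 1.34, limma adjusted p = 0.443).

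A list of other miRNAs that are X-linked in human gave a frame for these values. It may not hold every such miRNA. miR-1277-3p, which had the smallest p for sex, was not among its tested names. The counts below therefore leave it out, whatever its position in human. The list held 102 further mature names, of which 45 were tested, and 0 of 45 were called for sex in either direction. Of these, 17 lay above 0 and 28 below, with a median log2 difference of -0.11, against -0.04 over all 481 miRNAs, of which 44.1% lay above 0. The most abundant were miR-98, of the let-7 family, at 2977 RPM in females and 3377 RPM in males, miR-221-3p at 2387 and 2833 RPM, and its cluster partner miR-222-3p at 1326 and 1463 RPM in females and in males. For diet, 0 of the 45 were called, with a median log2 difference of 0.12 in RPM and -0.02 after scaling.

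Ratios within a library were also compared between females and males, by an exact two-sided permutation test of sex within diet. None of the 6 ratios passed. The log2 ratio of miR-421 to the summed mates was 0.02 ± 0.38 in females and -0.03 ± 0.34 in males (SD, n = 6 each; exact p = 0.63, adjusted p = 0.675 over 6 ratios). That of miR-374b-5p to miR-374a-5p, the 5p arms that share a seed, was 0.84 ± 0.16 in females and 1.02 ± 0.30 in males (exact p = 0.19, adjusted p = 0.57). The arm ratios of miR-374a, miR-374b and miR-545 had an adjusted p of 0.675, 0.675 and 0.57 in the same exact test, and that of miR-545 rested on 10 reads in all 12 libraries.

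Whether the diets differed alike in females and males was tested as an interaction. No member passed. miR-421 averaged 199 ± 53 RPM in MNR females and 271 ± 53.3 RPM in control females, and 212 ± 39.5 RPM in MNR males and 310 ± 14.3 RPM in control males (SD, n = 3 each). Its log2 difference between diets was -0.47 in females and -0.57 in males, which differ by 0.10 with a 95% confidence interval of -0.62 to 0.83 (limma, adjusted p = 0.94). The female value was -0.23 without MNR replicate 2, and ran from -0.61 to -0.23 with single fetuses left out, against -0.66 to -0.40 for males. The widest gap between sexes was that of miR-374a-5p. It stood at 51.9 ± 7.28 RPM in MNR females and 44 ± 8.01 RPM in control females, and at 46.9 ± 8.51 RPM in MNR males and 53.3 ± 6.39 RPM in control males. The difference of its diet differences was 0.43, with an interval of -0.34 to 1.2 (limma, adjusted p = 0.913).

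Over all 481 miRNAs 0% were called for the interaction by limma, and 0 by edgeR and DESeq2. At an unadjusted p under 0.05 there were 24 (4.99%), none of them a member. The smallest p belonged to miR-450a-5p, an X-linked miRNA in human, at 0.983 RPM in MNR and 2.36 RPM in control females, and at 6.33 RPM in MNR and 1.69 RPM in control males (log2 difference -2.42, limma adjusted p = 0.77).

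**Figure D3:**
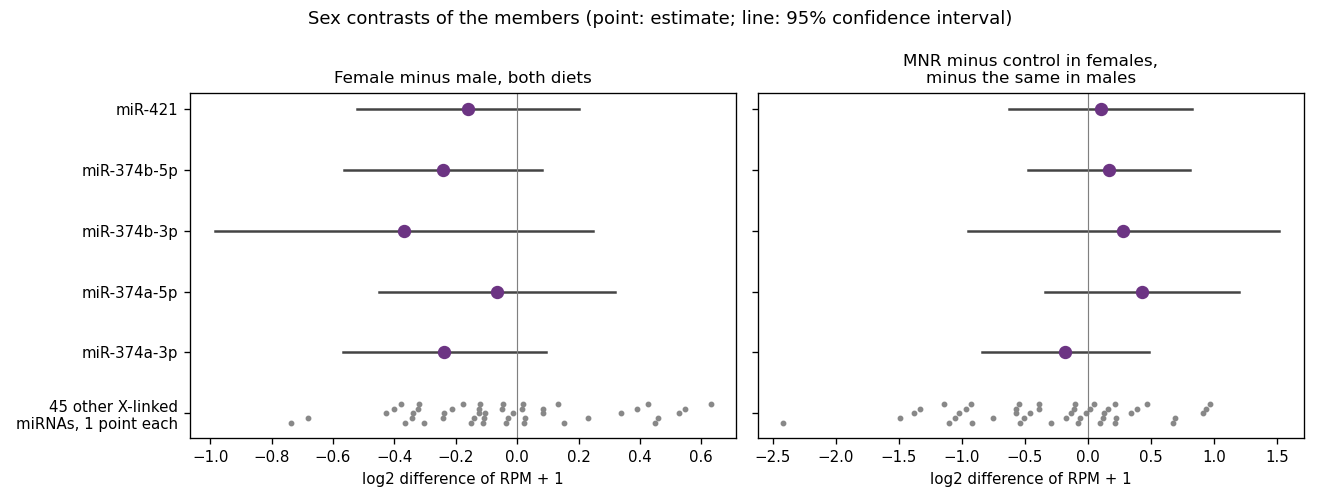
Log2 differences of RPM + 1 for the 5 members (points) with 95% confidence intervals (lines), and for 45 other X-linked miRNAs (grey points). The left panel gives female minus male over both diets and the right panel the diet difference in females minus that in males; every interval of a member includes 0 in both panels.

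The members come from introns of one transcript in human, so their levels were followed from fetus to fetus within each diet, after median-ratio scaling. Of 8 relations of miR-421 with the 4 mates in 6 MNR and in 6 control fetuses, none passed after adjustment. By Pearson's r over all 6 fetuses of a diet, the highest was with miR-374b-3p, the 3p arm of the neighbouring hairpin. Pearson's r was 0.794 in MNR fetuses (exact permutation p = 0.0528, adjusted p = 0.211) and 0.819 in controls (exact p = 0.05, adjusted p = 0.211), with Spearman's rho of 0.714 (exact p = 0.136, adjusted p = 0.544) in MNR and 0.486 (exact p = 0.356, adjusted p = 0.803) in controls. Without the 2 fetuses farthest from the median of miR-374b-3p, r was 0.448 in MNR and -0.113 in controls, which leaves 4 fetuses over a narrower range of miR-374b-3p. With single fetuses left out, r ran from 0.597 to 0.945 in MNR and from 0.331 to 0.952 in controls, the 0.331 without control replicate 3. For miR-374b-3p a library held as few as 6 reads.

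Over all 6 fetuses r was lower for the other mates, which hold more reads, although in controls rho was highest with miR-374a-3p. With miR-374b-5p, r was 0.334 in MNR fetuses (exact p = 0.55) and 0.192 in controls (exact p = 0.715; adjusted p = 0.971 for both), and Spearman's rho was 0.143 and 0.2 (exact p = 0.803 and 0.714, adjusted p = 0.803 for both) in MNR and in controls. Without the 2 farthest fetuses these r were -0.111 in MNR and 0.144 in controls. With miR-374a-3p, r was 0.151 in MNR fetuses (exact p = 0.743, adjusted p = 0.971) and 0.656 in controls (exact p = 0.151, adjusted p = 0.404), and rho was 0.429 and 0.829 (exact p = 0.419 and 0.0583, adjusted p = 0.803 and 0.467) in MNR and in controls. Without the 2 farthest fetuses, r was -0.158 in MNR and 0.645 in controls. With miR-374a-5p, r was -0.0803 in MNR fetuses and 0.0218 in controls (exact p = 0.907 and 0.971, adjusted p = 0.971 for both), and rho was 0.143 and -0.143 (exact and adjusted p = 0.803 for both) in MNR and in controls. Here r without the 2 farthest fetuses was 0.518 in MNR and -0.451 in controls.

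With the mean of each diet removed, the miRNA most like miR-421 over the 12 fetuses was again miR-374b-3p (r = 0.779), as a description over all 481 tested miRNAs. Next came miR-181a-2-3p (r = 0.753), miR-28-3p (r = 0.718), miR-491-3p (r = 0.685) and miR-26b-3p (r = 0.678). The mates miR-374a-3p, miR-374b-5p and miR-374a-5p took places 72, 103 and 252, with r of 0.329, 0.247 and -0.0218. For miR-374a-5p the most alike were miR-138-2-3p (r = 0.768), miR-1306-5p (r = 0.765), miR-103a-2-5p (r = 0.727), miR-27a-5p (r = 0.72) and miR-491-5p (r = 0.709), and miR-374b-5p took place 76 (r = 0.398). All points share the scaling of their library. The miRNAs most like miR-421 averaged 2.12 (miR-491-3p) to 841 RPM (miR-28-3p), and those most like miR-374a-5p 1.65 (miR-27a-5p) to 12.7 RPM (miR-491-5p).

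**Figure D4:**
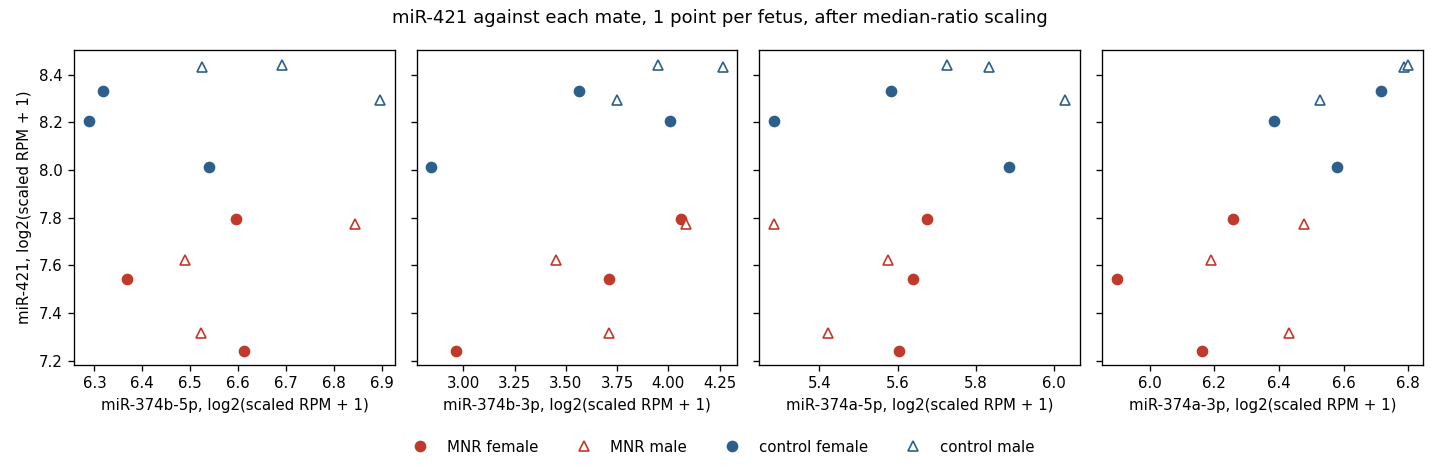
miR-421 against each of 4 mates as log2 of scaled RPM + 1, 1 point per fetus, coloured by diet and shaped by sex. The MNR points lie below the control points on the miR-421 axis in all panels, and over the 6 fetuses of a diet Pearson's r is highest with miR-374b-3p (0.794 in MNR and 0.819 in controls), while in controls Spearman's rho is higher with miR-374a-3p (0.829) than with miR-374b-3p (0.486).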

How the data were processed

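Per the labels' protocols, RNA of fetal frontal cortex was isolated with a miRNeasy kit and small RNA libraries were made from enriched fractions with an Illumina kit. Neither the aligner nor the counter is stated in the sources at hand; hg18, a human assembly, appears in the submitters' processing notes without a role. One deposited table of 2234 entries was used, each pairing a human mature miRNA with a precursor. Its RPM values, deposited by the authors, sum to 1000000 per library and are rounded to 2 decimals. Its pooled read count per entry was deposited by the authors without naming the libraries pooled. For each mature name the entry with most reads was kept. Sequences of these miRNAs were not used here.

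The RPM steps gave back whole reads (100% of values within 0.0051 RPM), and each library pair differed beyond sampling noise (chi-square per degree of freedom at least 25.1). limma 3.58.1 with a trend was fitted in R 4.3.3 to log2(RPM + 1) for 481 miRNAs whose mean reached 1 RPM. Diet was fitted over 2 groups of 6, sex and interaction over 4 cells of 3, and called at a Benjamini-Hochberg adjusted p below 0.05. This log scale understates changes of low miRNAs. Ratios and correlations used exact permutation tests in Python 3.11.15. Alternatives were other scalings, pseudocounts and filters, a total over single names, edgeR 4.0.16 and DESeq2 1.42.0 on recovered reads, and each fetus left out. The fit was tested on simulated reads with planted changes larger than any sex or interaction difference of a member. That test therefore does not show how often differences as small as theirs would be called. The members, lists and tests were chosen with earlier results of these data known. How reads shared by near-identical miRNAs were assigned is not stated. Named were all members, the 5 miRNAs most like miR-421 and the 5 most like miR-374a-5p. Also named were the 3 most abundant X-linked miRNAs and that of smallest p where none was called. The X-linked list follows human positions, and 3 names that also have autosomal entries were left out of it.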

Additional observations from a re-analysis of the deposited data

Results flagged for a closer look

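The deposited pooled read count, which the comparisons above do not use, exceeded the reads of the 12 cortex libraries for every member. The excess was 2920 reads for miR-421, 2928 for miR-374b-5p, 287 for miR-374b-3p, 3632 for miR-374a-5p, 5272 for miR-374a-3p, 13 for miR-545-5p and 11 for miR-545-3p, all above the 3 reads that a count of 0 allows. Which libraries these reads come from is not stated, so no level can be given for them. If the pooled count includes the 12 cortex libraries, which is not stated, the share of pooled reads from them differed within the cluster. It was 56.4% for miR-421 (exact 95% interval 55.2 to 57.6%, counting error only), 32.6% for miR-374b-5p (31.2 to 34.0%) and 39.7% for miR-374b-3p (35.3 to 44.3%). For miR-374a-5p it was 16.9% (15.8 to 18.1%) and for miR-374a-3p 20% (19 to 21%), against 16.9% over all entries summed and a median of 31.6% over the 481 tested names. Of those names, 74% had a lower share than miR-421, 50.5% a lower share than miR-374b-5p and 27.7% a lower share than miR-374a-5p. No fetus stood apart from its diet group in the 36 groups of levels and ratios examined.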

How the results depend on the processing

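No paired analysis was possible because the labels give no replicate numbers or mothers. The replicate numbers used here follow the order of the samples within each diet. For miR-421, the log2 difference MNR minus control kept its sign under every alternative run, at -0.74 after median-ratio scaling, and at -0.60 to -0.41 with each fetus left out. Its log2 ratio to miR-374b-5p kept its sign too, with differences of -0.83 to -0.69 with each fetus left out. Since miR-421 was picked for being lower in MNR in these same libraries, the kept signs are a description and no support. The diet differences of all 5 members were lower after median-ratio scaling, with the 0.221 by which it lowers MNR libraries: miR-374a-3p stood at -0.40, miR-374a-5p at -0.19, miR-374b-3p at -0.07 and miR-374b-5p at 0.029, and DESeq2 gave -0.40 for miR-374a-3p and 0.043 for miR-374b-5p. In RPM, those of miR-374a-5p (-0.06 to 0.09) and miR-374b-3p (-0.06 to 0.32) crossed 0 with fetuses left out. No member and no other miRNA was called for sex or interaction under any of the 21 alternatives. With each fetus left out, the sex difference of miR-421 ran from -0.24 to -0.040 and that of miR-374b-3p from -0.50 to -0.17. Small differences that missed the threshold changed sign without single fetuses: miR-374a-5p for sex (-0.12 to 0.012, above 0 without control replicate 2 or MNR replicate 4), and for interaction miR-421 (-0.064 to 0.34, below 0 without control replicate 3 or MNR replicate 1 or 5) and miR-374b-3p (-0.081 to 0.68, below 0 without control replicate 3). Female minus male ratios did so for miR-421 over the summed mates (-0.010 to 0.12, without MNR replicate 5) and for the arms of miR-374b (-0.064 to 0.28, without control replicate 3 or MNR replicate 2). With each fetus left out, r of miR-421 with miR-374a-5p ran from -0.43 to 0.603 in MNR and from -0.328 to 0.519 in controls, and was 0.511 in MNR in RPM as deposited. In MNR r ran from -0.168 to 0.486 with miR-374a-3p and from -0.141 to 0.554 with miR-374b-5p, both below 0 without MNR replicate 6. Diet values within each sex, and pseudocounts and left-out fetuses for ratios between diets, were chosen after seeing the data. The cause was not tested. Depth limits miR-545 and miR-374b-3p most.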
